A study of Mus musculus with 12 samples.

Results

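The genes described are the lysyl oxidases Lox, Loxl1, Loxl2 and Loxl3, the lysyl hydroxylases Plod1 and Plod2, the prolyl 4-hydroxylase subunits P4ha1, P4ha2 and P4ha3, and the collagen chaperone Serpinh1. They are 10 of the 23282 genes counted in the libraries. They were taken by gene symbol, with earlier results of these data known. All cells were C22, a cloned mouse club (Clara) cell line from H-2Kb-tsA58 transgenic animals, which had been differentiated, deprived of serum and then harvested in 4 groups of 3 libraries each. NC were negative control cells, NC + TGF-β1 were control cells given 20 ng/ml TGF-β1 for 24 h, siPdcd5 were cells with knockdown of Pdcd5, and siPdcd5 + TGF-β1 were knockdown cells given the same treatment. The comparisons address how TGF-β1 and Pdcd5 each alter these genes, and whether the response to TGF-β1 depends on Pdcd5. Nothing in the labels says that the 3 libraries of a group came from separate cultures, so the p-values measure the spread between these libraries, which may be technical.

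These enzymes act on collagen from its synthesis to its deposition. In the endoplasmic reticulum the prolyl 4-hydroxylases make the hydroxyproline that stabilizes the collagen triple helix, the lysyl hydroxylases modify lysines that later take part in cross-links, and HSP47, the product of Serpinh1, binds the folded procollagen. Outside the cell the lysyl oxidases convert lysines and hydroxylysines to aldehydes, from which the cross-links between collagen molecules form. In the lung, cross-linked collagen is a known feature of fibrosis, and TGF-β1 is a known inducer of matrix genes.

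The libraries held 12809857 to 17714828 counts of QuantSeq, a method that reads the 3′ end of each transcript, and levels are given in CPM, counts scaled to the size of the library and not divided by transcript length. Pdcd5 lay at 65.1 to 73.5 CPM in the 6 control libraries and at 20.0 to 26.3 CPM in the 6 knockdown libraries, with no overlap. Of 6 club cell markers, Scgb3a2 and Cyp2f2 had 0 counts in all libraries, Scgb1a1 and Nkx2-1 had at most 1 count, Scgb3a1 had at most 5, and Foxa2 alone was well measured. Of 4 epithelial markers, Epcam had at most 1 count and Cdh1 24 to 53 counts, while the simple epithelial keratins Krt8 and Krt18 were abundant. Of 9 fibroblast markers, which include Col1a1, Col1a2 and Col3a1, 7 passed the filter on low counts. Their summed level was 5672 to 6116 CPM in NC, 8577 to 9327 CPM in NC + TGF-β1, 4914 to 5238 CPM in siPdcd5 and 6787 to 7316 CPM in siPdcd5 + TGF-β1, with Lum at no more than 1 count. The sum was made up mostly of Col1a1, Vim and Col3a1, and the list was split: after TGF-β1 4 of its 7 tested genes rose and 2, Dcn and Vim, fell in NC cells, and 3 rose and 2 fell in siPdcd5 cells. After knockdown 2 rose and 2 fell without TGF-β1, and 1 rose and 1 fell with it. These are calls at an adjusted p under 0.05 in edgeR's test with Benjamini-Hochberg adjustment. Over all 12425 genes tested, 15.3% changed after TGF-β1 in NC cells and 16.1% in siPdcd5 cells. Knockdown changed 3.44% of them without TGF-β1 and 1.55% with it. The sum moved with several of the genes below, and its part in their changes was not tested. Of 3 endothelial and 3 immune markers, Pecam1, Cdh5 and Ptprc had at most 6 counts in a library, while Kdr, Csf1r and Cd68 were counted at low levels, so that the endothelial sum reached 2.47 CPM and the immune sum 15.1 CPM. In bulk RNA, fewer cells of a type and less RNA per cell cannot be told apart.

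TGF-β1 raised most of the collagen-modifying enzymes. In NC cells 6 of the 9 genes that passed the filter rose and 0 fell (Lox, Loxl2, Plod1, Plod2, P4ha1 and P4ha2), while 15.3% of the 12425 genes tested changed and 8.57% rose (edgeR's quasi-likelihood test, Benjamini-Hochberg adjusted p under 0.05). In siPdcd5 cells 5 of the 9 rose and 0 fell (the same genes without Loxl2), with 16.1% of all genes changed and 8.5% higher. The median log2 fold change of the 9 genes was 0.84 in NC and 0.72 in siPdcd5 cells, against 0.0050 and −0.026 over all genes tested. Loxl1, with at most 4 counts in any library, was not tested.

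Knockdown of Pdcd5 lowered a few of them. Without TGF-β1, Lox and P4ha1 were lower in siPdcd5 than in NC, 2 of the 9 tested, where 3.44% of all genes changed and 2.54% were lower. With TGF-β1, P4ha1 and Loxl2 were lower, again 2 of 9, where 1.55% of all genes changed and 1.22% were lower. The medians of the 9 genes were −0.24 and −0.30 on the log2 scale, against 0.022 and −0.017 over all genes. Each comparison with TGF-β1 shares a group of libraries with each comparison with knockdown, so their values are set side by side and not counted as separate evidence. The response to TGF-β1 itself was not shown to depend on the knockdown: the interaction was called for 0 of the 9 genes, as for 0% of all genes. At an unadjusted p under 0.05 it stood for 1 of the 9, Lox, and for 5.13% of all genes (638 genes). DESeq2 called 15 genes for the interaction and limma 0, none of them among these 9.

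**Figure D1:**
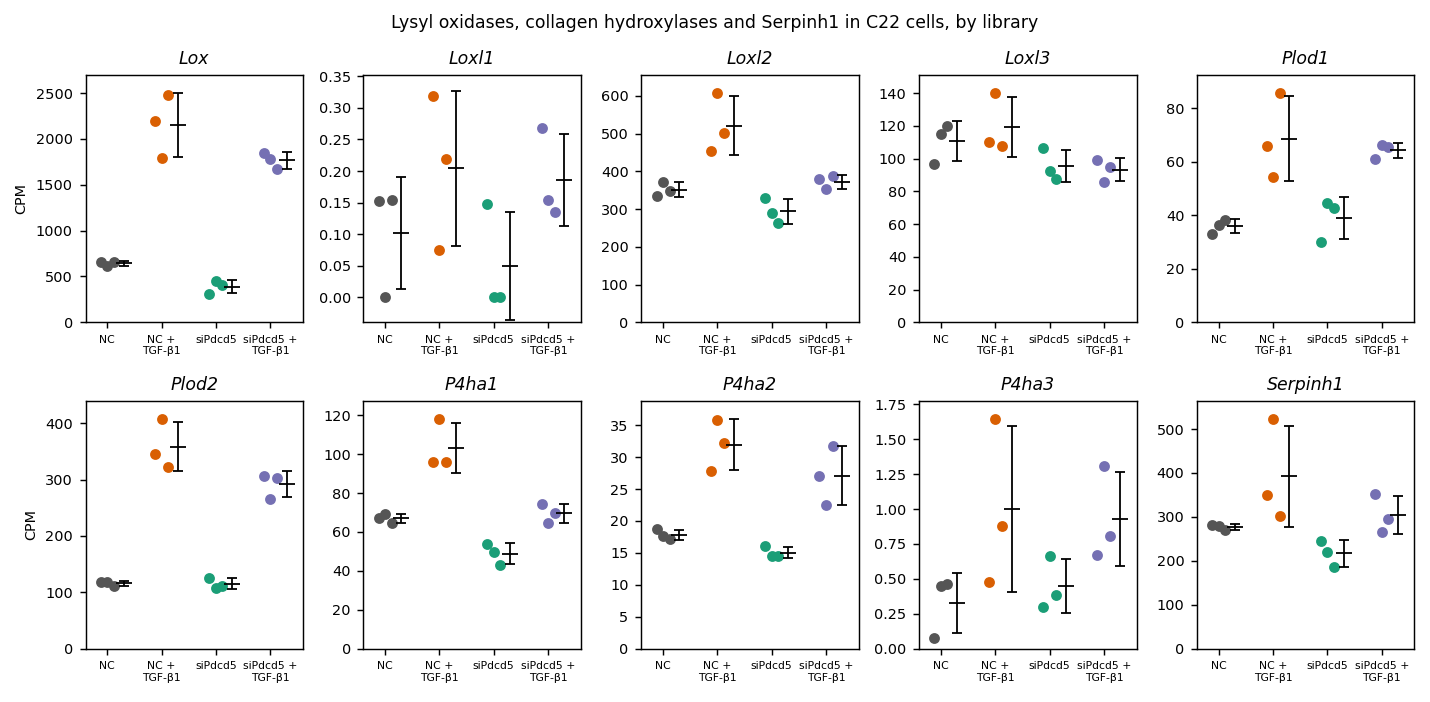
CPM (linear axes, scaled separately for each gene) of the 10 genes in the 12 libraries, with 3 libraries per group as points and the mean with its SD as a bar beside them. Lox, Plod1, Plod2, P4ha1 and P4ha2 were higher with TGF-β1 in control and knockdown cells, Loxl1 and P4ha3 stayed at or below 1.64 CPM, and the groups of Loxl3 overlapped, except that NC + TGF-β1 lay above both knockdown groups.

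In untreated NC cells the order of the levels in CPM was Lox, Loxl2, Serpinh1, Plod2, Loxl3, P4ha1, Plod1, P4ha2, P4ha3 and Loxl1. The mean level fell from 643 ± 25.0 CPM (SD, n = 3) for Lox to 0.102 ± 0.088 CPM (SD, n = 3) for Loxl1. Between neighbours in this order, the libraries of Plod2 and Loxl3 overlapped, as did those of P4ha3 and Loxl1, and the other neighbours did not. These are counts of 3′ reads without division by length, so the order also reflects how well each 3′ end is read.

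Lox, which encodes the founding member of the lysyl oxidases, was the most abundant of the 10 and had the largest rise after TGF-β1. Its level was 657, 615 and 659 CPM in NC and 2195, 1788 and 2481 CPM in NC + TGF-β1. In siPdcd5 it was 307, 448 and 405 CPM, and in siPdcd5 + TGF-β1 it was 1849, 1786 and 1668 CPM. All treated libraries lay above all untreated ones, and the 3 untreated knockdown libraries lay below the 3 untreated control libraries. TGF-β1 raised Lox 3.35-fold in NC cells (log2 fold change 1.74, SE 0.14, edgeR with Benjamini-Hochberg adjusted p = 7.36e-07) and 4.57-fold in siPdcd5 cells (2.19, SE 0.14, adjusted p = 1.14e-07).

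The effect of knockdown on Lox was seen in untreated cells. Without TGF-β1 the log2 fold change of siPdcd5 against NC was −0.73 (SE 0.14, edgeR with Benjamini-Hochberg adjusted p = 0.00812), which is 1.66-fold lower. With TGF-β1 it was −0.29 (95% interval −0.58 to 0.0055, adjusted p = 0.374), and the libraries of the 2 groups overlapped, since replicate 2 of NC + TGF-β1 (1788 CPM) lay within the knockdown range. The interaction for Lox was 0.45 on the log2 scale, higher in siPdcd5 cells, with a 95% interval of 0.036 to 0.86, an unadjusted p of 0.0350 and an adjusted p of 0.951 in edgeR's fit with Benjamini-Hochberg adjustment. It did not pass the threshold over all genes. Lox lies on chromosome 18 (GRCm38, chr18:52516067-52529867, minus strand), and an antisense gene, AC161119.1, overlaps its 5′ part but not its 3′ end.

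Loxl2, a secreted lysyl oxidase with a known role in cross-linking collagen IV, rose less. In NC it stood at 335, 372 and 348 CPM, and in NC + TGF-β1 at 455, 608 and 500 CPM, with no overlap. In siPdcd5 the values were 329, 290 and 263 CPM and in siPdcd5 + TGF-β1 379, 352 and 387 CPM, again without overlap. The rise was 1.48-fold in NC cells (log2 0.57, SE 0.11, edgeR with Benjamini-Hochberg adjusted p = 0.00270). In siPdcd5 cells the log2 fold change was 0.34 (95% interval 0.10 to 0.58, adjusted p = 0.0533), which missed the threshold, and the difference between the responses was −0.23 (95% interval −0.57 to 0.11, adjusted p = 0.960).

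After TGF-β1, Loxl2 was 1.40-fold lower with knockdown (log2 −0.48, SE 0.11, edgeR with Benjamini-Hochberg adjusted p = 0.0491), and the 3 knockdown libraries lay below the 3 control libraries. This call was close to the threshold, and 3 of 13 alternatives kept it. It was lost with upper-quartile factors, with quantile normalization and limma, with at least 10 counts in each library, in the fit of the 6 libraries compared and with the replicate block (adjusted p = 0.0969). It was also lost when any 1 library of siPdcd5 + TGF-β1, or replicate 2 or 3 of NC + TGF-β1, was left out, with log2 fold changes of −0.49, −0.45 and −0.51 without siPdcd5 + TGF-β1 replicates 1, 2 and 3, and of −0.36 and −0.52 without replicates 2 and 3 of NC + TGF-β1. Replicate 2 of NC + TGF-β1 was the highest library of its group for 7 of the 9 tested genes and the lowest for the other 2, Lox and Plod1. Its Rn45s, a ribosomal RNA precursor, took 3.95% of the counts, the lowest share of the 12 libraries (up to 6.49%), and the part of this feature in the values was not tested. Without TGF-β1 the log2 fold change of Loxl2 after knockdown was −0.26 (adjusted p = 0.279), with libraries that did not overlap between the groups. Loxl2 is on chromosome 14 (GRCm38, chr14:69609068-69695834, plus strand), with antisense and other genes inside its span but none over its 3′ end.

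The counts of Loxl3 may include reads of a neighbour. Loxl3 (GRCm38, chr6:83034173-83052562, plus strand) and Htra2, which encodes a mitochondrial serine protease (chr6:83051266-83055273, minus strand), run towards each other. The last exon of Htra2 (chr6:83051266-83051634) lies wholly inside the last exon of Loxl3 (chr6:83050800-83052562), where 3′ reads of both genes fall, and the use of strand in counting is not stated. Loxl3 had 96.7 to 120 CPM in NC, 108 to 140 CPM in NC + TGF-β1, 87.5 to 107 CPM in siPdcd5 and 85.4 to 99.2 CPM in siPdcd5 + TGF-β1. Htra2 ran beside it at 72.4 to 104 CPM over the 12 libraries, and the ratio of Loxl3 to Htra2 counts stayed between 1.16 and 1.35. Of 9109 candidate genes, Htra2 was also the one with the pattern nearest to that of Loxl3, as a root mean square difference of 0.064 in centred log2 CPM over the 12 libraries. Loxl2 and its nearest gene, Lamc1, stood at the same distance of 0.064. Loxl3 was not called in any comparison, with log2 fold changes of 0.11 and −0.034 after TGF-β1 in NC and siPdcd5 cells and of −0.21 and −0.36 after knockdown without and with TGF-β1. Htra2 was not called in any comparison either, and genes that change little keep a narrow ratio. Whether Loxl3 and Htra2 share reads was not tested. With the use of strand unknown, these values cannot be assigned to Loxl3 alone.

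**Figure D2:**
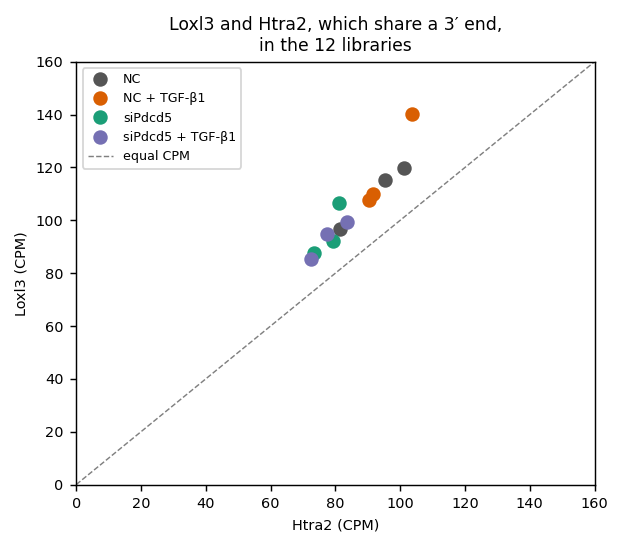
CPM of Loxl3 (vertical axis) against CPM of Htra2 (horizontal axis) in the 12 libraries, coloured by group, with a dashed line of equal CPM. All 12 points lie above the line in a narrow band, at ratios of 1.16 to 1.35, and the groups overlap along it, except that NC + TGF-β1 lies above both knockdown groups in Loxl3.

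Loxl1, which is known for its role in elastic fibres, was at the limit of detection. Its counts were 2, 0 and 2 in NC, 4, 1 and 3 in NC + TGF-β1, 2, 0 and 0 in siPdcd5, and 4, 2 and 2 in siPdcd5 + TGF-β1. A level of 3 counts corresponds to 0.165 to 0.239 CPM in these libraries, so no difference between the groups was detectable at this depth.

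Plod2, the lysyl hydroxylase that acts on the telopeptides of collagen, rose in both kinds of cells. Its level was 118, 119 and 111 CPM in NC, and 345, 408 and 323 CPM in NC + TGF-β1. Without TGF-β1 the knockdown libraries had 126, 108 and 111 CPM, and with it 307, 265 and 304 CPM. Treated and untreated libraries were far apart in both kinds of cells. The rise was 3.10-fold in NC (log2 1.63, SE 0.11, edgeR with Benjamini-Hochberg adjusted p = 1.01e-07) and 2.54-fold in siPdcd5 (1.35, SE 0.10, adjusted p = 6.12e-07). After knockdown the log2 fold change was −0.013 without TGF-β1 (95% interval −0.23 to 0.21, adjusted p = 0.972) and −0.30 with it (−0.52 to −0.078, adjusted p = 0.194). The 3 treated knockdown libraries lay below the 3 treated controls, but neither value passed the threshold. The difference between the responses was −0.28 (95% interval −0.60 to 0.028, adjusted p = 0.951). Plod2 is on chromosome 9 (GRCm38, chr9:92542223-92608428, plus strand).

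Plod1, the lysyl hydroxylase that acts on the triple helix, had 33.2, 36.5 and 38.2 CPM in NC and 66.0, 54.4 and 85.8 CPM in NC + TGF-β1. The siPdcd5 libraries had 30.0, 44.4 and 42.9 CPM and the siPdcd5 + TGF-β1 libraries 61.0, 66.3 and 65.7 CPM. Treated libraries were higher than untreated ones in both, and control and knockdown libraries overlapped with and without TGF-β1. The rise was 1.91-fold in NC (log2 0.94, SE 0.16, edgeR with Benjamini-Hochberg adjusted p = 0.00108) and 1.64-fold in siPdcd5 (0.72, SE 0.16, adjusted p = 0.00729). After knockdown the log2 fold changes were 0.12 (adjusted p = 0.797) without TGF-β1 and −0.096 (adjusted p = 0.860) with it. Plod2 took 76.3% ± 1.8 (SD, n = 3) of the summed CPM of Plod1 and Plod2 in NC and 83.7% ± 4.6 in NC + TGF-β1, given as a description. Plod1 is on chromosome 4 (GRCm38, chr4:147909753-147936767, minus strand).

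The catalytic α subunits of prolyl 4-hydroxylase were led by P4ha1, which took 78.7% ± 0.61 (SD, n = 3) of the summed CPM of the 3 subunits in NC, ahead of P4ha2 with 20.9% ± 0.82. The promoters of both, on GRCm38 as given by RefSeq, are printed as a description, as both genes are known targets of hypoxia-inducible factors. Lox, Loxl2, Plod1 and Plod2 also rose after TGF-β1 in NC cells. A role of these factors in any of the changes was not tested. Each window runs from 250 bases before to 50 bases after the start that RefSeq gives, P4ha1 at chr10:59323046-59323345 and P4ha2 at chr11:54100674-54100973, both on the plus strand. The RefSeq start of P4ha2 lies inside the GENCODE span given below, which begins upstream of it. Capitals mark ACGTG and GCGTG, the core letters of the hypoxia response element, on either strand, so that CACGT and CACGC are the same letters read on the other strand.
P4ha1 promoter: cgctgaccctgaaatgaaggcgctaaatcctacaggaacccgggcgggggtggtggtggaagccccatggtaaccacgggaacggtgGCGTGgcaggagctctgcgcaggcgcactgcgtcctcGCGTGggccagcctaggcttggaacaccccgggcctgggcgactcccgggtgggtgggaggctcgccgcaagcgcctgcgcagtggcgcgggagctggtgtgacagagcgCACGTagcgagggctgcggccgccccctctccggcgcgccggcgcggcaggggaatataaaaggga
P4ha2 promoter: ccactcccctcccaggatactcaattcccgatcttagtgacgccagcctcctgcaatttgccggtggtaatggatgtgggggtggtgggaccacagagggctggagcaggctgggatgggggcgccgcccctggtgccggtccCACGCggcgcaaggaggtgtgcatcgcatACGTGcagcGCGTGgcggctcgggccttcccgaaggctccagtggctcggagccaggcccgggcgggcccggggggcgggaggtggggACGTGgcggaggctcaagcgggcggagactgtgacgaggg

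Promoters were matched for 5 of the 10 genes, Plod1, P4ha1, P4ha2, P4ha3 and Serpinh1. ACGTG on either strand was present in 3 of these 5 (P4ha1, P4ha2 and Serpinh1) and in 19.6% of the 32851 mouse promoters of the same length. GCGTG was present in 3 of the 5 (Plod1, P4ha1 and P4ha2) and in 32.4% of all promoters. At least 1 of ACGTG and GCGTG, which do not overlap in these windows, was found in 4 of the 5 and in 43.8% of all promoters. CAGAC, the letters of a SMAD-binding element, was in 2 of the 5 (Plod1 and Serpinh1) and in 49.6% of all promoters. P4ha3 held none of these letters in its window. A match is a description of the letters and not a site of binding.

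P4ha1 rose with TGF-β1 and was lower with knockdown in both settings. It had 67.1, 69.2 and 64.7 CPM in NC, 96.0, 118 and 95.8 CPM in NC + TGF-β1, 53.6, 49.5 and 42.9 CPM in siPdcd5, and 74.4, 64.4 and 69.8 CPM in siPdcd5 + TGF-β1. In each of these 4 comparisons the libraries did not overlap. The treated knockdown libraries overlapped with the untreated control libraries, which were not tested against each other. TGF-β1 raised P4ha1 1.54-fold in NC (log2 0.62, SE 0.11, edgeR with Benjamini-Hochberg adjusted p = 0.00103) and 1.43-fold in siPdcd5 (0.52, SE 0.11, adjusted p = 0.00466), and the difference between the responses was −0.11 (95% interval −0.44 to 0.22, adjusted p = 0.977).

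With knockdown, P4ha1 was 1.38-fold lower without TGF-β1 (log2 −0.46, SE 0.11, edgeR with Benjamini-Hochberg adjusted p = 0.0338) and 1.48-fold lower with it (−0.57, SE 0.11, adjusted p = 0.0166). The first call was lost when any 1 library of NC, or replicate 2 or 3 of siPdcd5, was left out. The log2 fold changes were then −0.46, −0.44 and −0.49 without NC replicates 1, 2 and 3, and −0.48 and −0.39 without siPdcd5 replicates 2 and 3. The second was lost without any 1 library of siPdcd5 + TGF-β1 (−0.62, −0.52 and −0.57 without replicates 1, 2 and 3), and in the fit of only the 6 libraries compared (−0.56, adjusted p = 0.104). With the replicate number as a block, the adjusted p was 0.0525 without and 0.0366 with TGF-β1. P4ha1 is on chromosome 10 (GRCm38, chr10:59323296-59373304, plus strand) and overlaps no other annotated gene.

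P4ha2 was lower in level and rose by about the same ratio in both kinds of cells. Its values were 18.7, 17.6 and 17.1 CPM in NC, 27.9, 35.8 and 32.2 CPM in NC + TGF-β1, 16.0, 14.6 and 14.6 CPM in siPdcd5, and 27.0, 22.5 and 31.8 CPM in siPdcd5 + TGF-β1. The rise was 1.80-fold in NC (log2 0.84, SE 0.14, edgeR with Benjamini-Hochberg adjusted p = 0.000513) and 1.80-fold in siPdcd5 (0.85, SE 0.14, adjusted p = 0.000526), with a difference of 0.0070 (95% interval −0.40 to 0.42). With knockdown the log2 fold change was −0.24 both without (adjusted p = 0.439) and with TGF-β1 (adjusted p = 0.466), and neither passed. The knockdown libraries lay below the controls without TGF-β1, while with it the groups overlapped. P4ha2 is on chromosome 11 (GRCm38, chr11:54100095-54131665, plus strand).

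P4ha3 was near the limit of detection. Its counts were 1, 6 and 6 in NC, 6, 22 and 12 in NC + TGF-β1, 4, 12 and 6 in siPdcd5, and 10, 17 and 12 in siPdcd5 + TGF-β1. The log2 fold change after TGF-β1 was 1.59 in NC (95% interval 0.27 to 2.92, edgeR with Benjamini-Hochberg adjusted p = 0.106) and 0.99 in siPdcd5 (−0.23 to 2.21, adjusted p = 0.274). The intervals are wide at this depth and include the changes seen for Lox. P4ha3 is on chromosome 7 (GRCm38, chr7:100285520-100319699, plus strand).

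Serpinh1, the HSP47 gene, had 282, 279 and 270.0 CPM in NC and 351, 522 and 303 CPM in NC + TGF-β1. In siPdcd5 it had 245, 220 and 185 CPM, and in siPdcd5 + TGF-β1 352, 266 and 295 CPM. Treated libraries were higher than untreated ones in both kinds of cells without overlap, but the spread of the treated controls was wide. The log2 fold change after TGF-β1 was 0.50 in NC (95% interval 0.13 to 0.87, edgeR with Benjamini-Hochberg adjusted p = 0.0648) and 0.49 in siPdcd5 (0.13 to 0.86, adjusted p = 0.0662). In NC cells it was 0.24 without replicate 2 of NC + TGF-β1, the library at 522 CPM. After knockdown the log2 fold changes were −0.36 without (adjusted p = 0.339) and −0.36 with TGF-β1 (adjusted p = 0.364). In untreated cells the knockdown libraries lay below the controls, while in treated cells the groups overlapped. Serpinh1 is on chromosome 7 (GRCm38, chr7:99345376-99353239, minus strand).

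**Figure D3:**
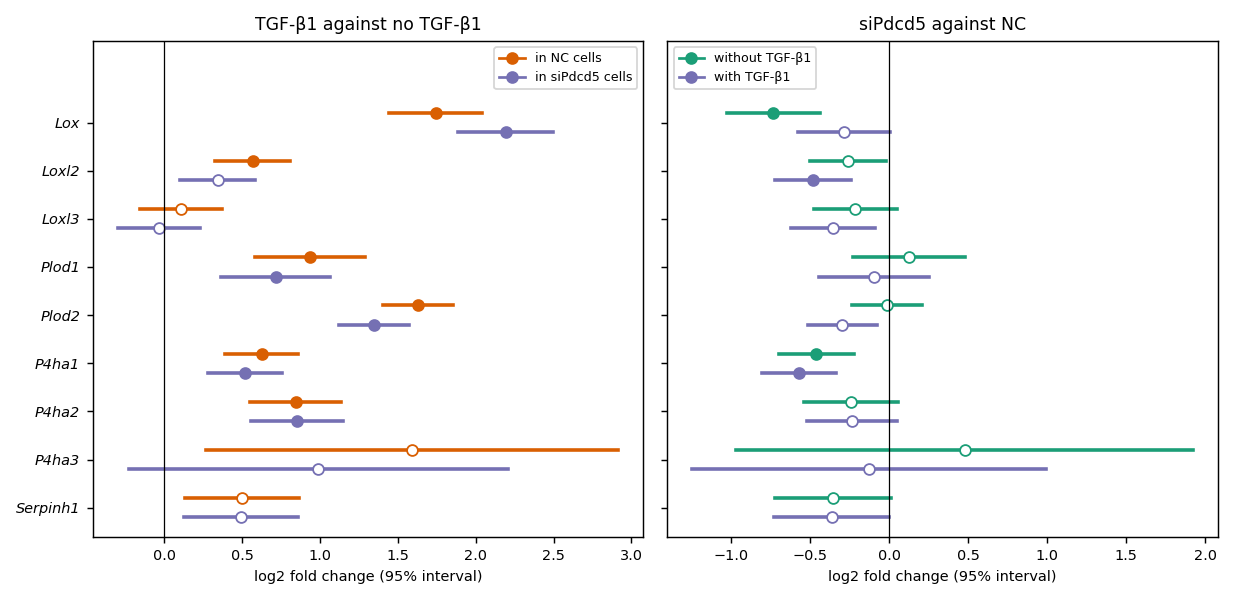
Log2 fold changes with 95% intervals (edgeR) of the 9 tested genes, after TGF-β1 in NC and siPdcd5 cells (left) and of siPdcd5 against NC without and with TGF-β1 (right). Filled points passed a Benjamini-Hochberg adjusted p of 0.05 over all genes and open points did not, and Lox and Plod2 stand farthest to the right of 0 among the filled points on the left.

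The rest of the collagen maturation pathway was described with a list of 29 genes, of which 22 passed the filter. After TGF-β1, 11 of the 22 rose and 0 fell in NC cells, where 8.57% of all genes rose, and 9 rose and 0 fell in siPdcd5 cells, where 8.5% of all genes rose. Creb3l1, a membrane-bound transcription factor known to act on collagen and secretory genes, had the largest rise of the list. It lay at 43.6 to 49.7 CPM in NC, 145 to 174 CPM in NC + TGF-β1, 30.8 to 35.5 CPM in siPdcd5 and 78.1 to 94.0 CPM in siPdcd5 + TGF-β1. The log2 fold change was 1.76 (SE 0.11) in NC and 1.42 (SE 0.11) in siPdcd5 cells. In the propeptide group, Bmp1, the C-proteinase of procollagen, rose (0.60 and 0.46), as did the N-proteinase gene Adamts2 (0.42 and 0.61) and Pcolce2, which encodes an enhancer of the C-proteinase (0.84 and 0.77).

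In the other groups of the list, genes that rose stood beside genes that did not pass. Of 5 tested foldases 3 rose in NC and 2 in siPdcd5 cells. Of 5 tested genes of the prolyl 3-hydroxylase family and its partners 1 rose in each. Crtap (log2 0.046 and −0.41), P3h3 (0.020 and −0.070) and P3h4 (0.096 and 0.21), all in that group, did not pass after TGF-β1. P4hb, the β subunit of prolyl 4-hydroxylase, rose by 0.36 on the log2 scale in NC and 0.35 in siPdcd5 cells. Fkbp10, a foldase that acts with the telopeptide lysyl hydroxylase, rose by 0.72 and 0.65, and Fkbp14, a related foldase, by 0.59 and 0.47. In NC cells Plod3 (0.34), the hydroxylysine galactosyltransferase Colgalt1 (0.54), Ppib (0.45) and Fkbp7 (0.57) rose too. Their values in siPdcd5 cells, 0.13, 0.22, 0.13 and 0.43, did not pass, and the interaction was called for none of them. P3h1, which encodes a prolyl 3-hydroxylase, rose in siPdcd5 cells (0.57), with 0.39 in NC cells (adjusted p = 0.0568). Loxl4 was measured at 12.5 to 16.6 CPM and was called in none of the comparisons.

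With knockdown, 3 of the 22 were lower and 0 higher without TGF-β1, where 2.54% of all genes were lower. With TGF-β1 1 of the 22 was lower and 0 higher, where 1.22% of all genes were lower, so that this count is close to the background. Without TGF-β1 these were Creb3l1 (log2 −0.52, edgeR with Benjamini-Hochberg adjusted p = 0.0140), Sec24d, a coat protein of procollagen export (−0.76, adjusted p = 0.00283), and P3h4 (−0.34, adjusted p = 0.0363). With TGF-β1 it was Creb3l1 (−0.87, adjusted p = 0.000567).

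Of 8 genes for collagen chains and elastin, the substrates of these enzymes, 7 passed the filter and all 7 rose after TGF-β1 in both kinds of cells, where 8.57% (NC) and 8.5% (siPdcd5) of all genes rose. Elastin (Eln) had at most 1 count in a library. Col1a1, at 2639 to 2790.5 CPM in NC, rose by a log2 fold change of 1.17 (SE 0.098) in NC and of 1.22 (SE 0.098) in siPdcd5 cells. Col5a1, a fibril-forming chain, rose by 1.55 and 1.50. With knockdown 5 of the 7 were lower and 1 higher without TGF-β1, and 4 lower and 0 higher with it, against 2.54% and 1.22% of all genes that were lower. The lower chains without TGF-β1 were Col1a1, Col3a1, Col5a2, Col4a1 and Col4a2, and with it the same chains except Col3a1. Col5a2 was lower by the same amount in both, with −0.82 and −0.82. Col1a1 had −0.47 and −0.43 (edgeR with Benjamini-Hochberg adjusted p = 0.0148 and 0.0455), the second close to the threshold. The collagen chains were not followed one by one under the alternatives. Col1a2 had the largest rises after TGF-β1 (2.78 and 1.72) and was the one chain that was higher with knockdown, at 3.49 to 3.65 CPM in NC and 9.79 to 15.1 CPM in siPdcd5 (log2 1.74, adjusted p = 0.000633).

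**Figure D4:**
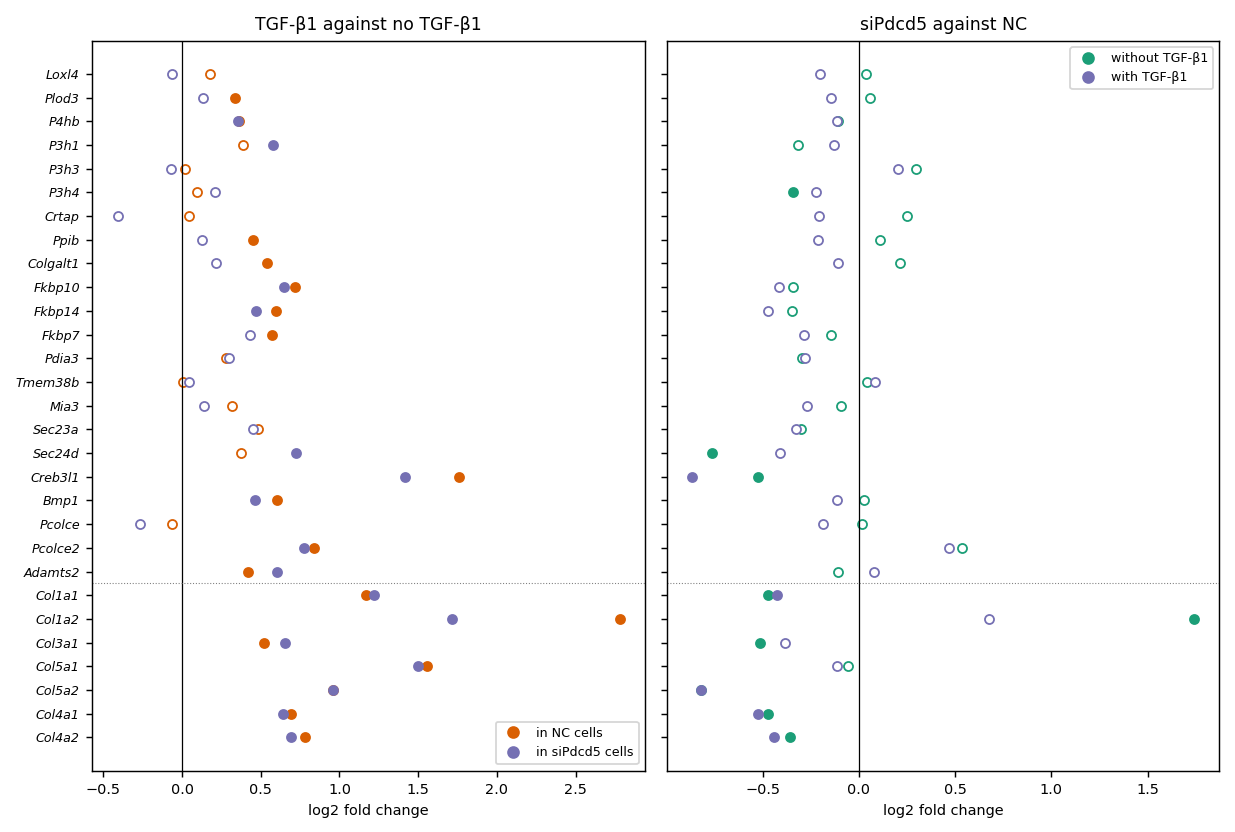
Log2 fold changes (edgeR) of the 22 tested genes of collagen maturation (above the dotted line) and of the 7 tested collagen chains (below it), after TGF-β1 (left) and for siPdcd5 against NC (right). Filled points passed a Benjamini-Hochberg adjusted p of 0.05, Creb3l1 stands out among the pathway genes in both panels, and Col1a2 lies opposite to the other collagen chains on the right.

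The genes with the nearest pattern were found among 9109 others as the smallest root mean square difference in centred log2 CPM over the 12 libraries. For Lox this was Fstl1 (0.15), for Loxl2 it was Lamc1 (0.064), for Plod1 Pkd1 (0.082) and for Plod2 Ncam1 (0.13). For P4ha1 it was Flrt2 (0.095), for Serpinh1 Unc5b (0.10) and for P4ha3, whose counts are low, 6330416G13Rik (0.46). Between the 9 genes themselves the nearest pair was Loxl2 and P4ha1 (0.11).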

How the data were processed

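RNA from 12 libraries of C22 cells (4 groups of 3) was measured by QuantSeq 3′ mRNA-seq, single-end. Per the paper's methods, reads were aligned with Bowtie2 and Bedtools was used to count unique as well as multiple alignments. The authors deposited whole read counts by gene symbol, with no normalization. The submitters' processing notes name the build mm10 (GRCm38) and edgeR. Neither the annotation nor whether counting used strand is given in the sources used here, so counts of genes with copies or overlapping neighbours are uncertain.

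R 4.3.3 was used, with the packages edgeR 4.0.16, DESeq2 1.42.0 and limma 3.58.1. Of 23282 genes, 12425 passed edgeR's filter on low counts over all 12 libraries, and 1 model of the 4 groups was fitted (TMM factors, quasi-likelihood test, 8 residual degrees of freedom before sharing across genes, square root of the common dispersion 0.132). A gene was called where its two-sided p, adjusted over all 12425 by Benjamini-Hochberg, was under 0.05. CPM use the TMM-scaled library sizes, and the likeness measure log2 CPM with a prior count of 2. Intervals are at 95%. Gene positions come from GENCODE, promoters from RefSeq (GRCm38.p6). The reads carry no molecular identifiers, so the floor of 3 counts covers counting error only. The tests were first checked on simulated counts.

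The 10 genes were all named. The gene of nearest pattern is not reported here for P4ha2. From each other list, genes past the threshold in at least 1 comparison were named, with at most 4 given values, by largest change among those whose log2 CPM averaged 3 or more. Loxl4, Eln, Crtap, P3h3 and the markers were named outside this rule. The genes and lists were chosen with earlier results of these data known. Alternatives were a block for the replicate number, factors from the upper quartile, DESeq2, quantile normalization with limma, no filter, a filter of 10 counts in each library, fits of the 6 libraries compared, and fits that left out 1 library each.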

Additional observations from a re-analysis of the deposited data

How the results depend on the processing

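Of 625 values of single genes under alternatives, 569 kept their direction and their side of the threshold, 20 lost and 11 gained a call, and 25 changed sign, none of those being called. Other named genes, among them the pathway genes, collagen chains and markers, were not followed one by one under the alternatives. For the 9 tested genes, the calls after TGF-β1 stood under all alternatives run, where Serpinh1 and Loxl2 gained calls in some. Without TGF-β1, knockdown lowered 2 genes, 1 with the replicate block and 1 to 2 when each library was left out in turn. With TGF-β1 it lowered 2 genes, and 1 (P4ha1, Loxl2 being lost) with upper-quartile factors, with quantile normalization and limma, with at least 10 counts in every library and with the replicate block, 0 in the fit of only the 6 libraries compared, and 0 to 2 when each library was left out in turn. Over all genes the calls after knockdown with TGF-β1 were 41 higher and 151 lower, 51 and 110 with quantile normalization, 129 and 330 with DESeq2, 19 and 88 with the replicate block, and 6 and 37 in the 6 libraries. Without TGF-β1 they were 112 and 315, and 206 and 508 with DESeq2.

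Signs turned for values that lay between −0.13 and 0.11 in the main fit. Some of them moved farther from 0 when 1 library was left out. P4ha3 after knockdown with TGF-β1 was 0.071 with quantile normalization, and the Serpinh1 interaction was 0.014 with quantile normalization, 0.012 without a filter and 0.018 with the replicate block. With each library left out in turn the ranges were −0.024 to 0.19 for Loxl3 after TGF-β1 in NC, −0.089 to 0.058 for Loxl3 in siPdcd5, −0.088 to 0.032 for Plod2 after knockdown without TGF-β1, −0.24 to 0.092 for Plod1 and −0.45 to 0.43 for P4ha3 after knockdown with it, and −0.12 to 0.12 for P4ha2 and −0.17 to 0.25 for Serpinh1 in the interaction. The cause was not tested. Same-numbered libraries deviated together with correlations of −0.32 to 0.17 across genes, and differently numbered ones with −0.22 to 0.25. For TGF-β1 in NC cells these ranges were 0.0074 to 0.17 and −0.17 to 0.058. With 3 libraries per group, such values cannot decide whether the numbers pair the samples. Among the 9 tested genes the block changed the calls named above alone. Depth limits Loxl1 and P4ha3.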

Other observations

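Some markers of cell identity also changed with TGF-β1, in different directions within a list. Foxa2, an airway transcription factor, fell in NC cells (log2 fold change −1.77, SE 0.089) and in siPdcd5 cells (−1.51, SE 0.087), from 161 to 183 CPM in NC to 49.1 to 52.2 CPM in NC + TGF-β1. Dcn, a small leucine-rich proteoglycan that binds collagen fibrils, fell after TGF-β1 (−2.08 in NC and −1.80 in siPdcd5) and was higher with knockdown (0.59 without and 0.88 with TGF-β1). Krt8 rose by 1.36 and 1.21 and Krt18 by 1.05 and 1.37, while Vim fell by 0.61 and 0.77 on the log2 scale, in NC and siPdcd5 cells in that order. All of these passed an adjusted p of 0.05 in edgeR's test with Benjamini-Hochberg adjustment. Within the same lists Cdh1, an epithelial cadherin, had −0.58 in NC and −0.13 in siPdcd5 cells and did not pass (adjusted p = 0.167 and 0.786), and Pdgfrb, a fibroblast marker, rose in NC cells (0.98, adjusted p = 0.00702) and had 0.48 in siPdcd5 cells (adjusted p = 0.167).

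Col1a1 and Col1a2, whose products form the type I collagen trimer, were measured at very different levels. In NC libraries Col1a1 had 34699 to 36798 counts and Col1a2 47 to 48. These are counts of 3′ reads under an annotation that is not given, so the gap also reflects how well each 3′ end is read.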
